A study of Mus musculus with 4 samples.

Results

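The Frizzled genes encode the cell surface receptors of Wnt proteins, and the mouse has Fzd1 to Fzd10. All 10 were found by symbol among the 23361 genes of the expression table, and 9 of them passed a filter on low values and were tested. RNA was sequenced from back skin cells of mouse embryos at E17.5, in 2 libraries of Nfatc1+ cells and 2 of Shh+ cells. The cells came from Nfatc1-CreER or Shh-CreER mice that also carried Rosa-stop-tdTomato and K14-H2BGFP, and every group therefore carried a CreER driver, the tdTomato reporter and the GFP transgene. Tamoxifen given once to the pregnant mothers at E15.5 activated CreER, so that tdTomato marked cells in which the Nfatc1 or the Shh gene was active at that time, together with their progeny, while GFP driven by the keratin 14 promoter marked epithelium. Cells with both colours were isolated by fluorescence-activated sorting. In the study's account, Nfatc1+ cells sit in the upper part of the hair peg, the downward growing bud of a developing follicle, and Nfatc1 and Shh mark complementary cells of the peg. Strain and the pooling of embryos are not given in the sources used here.

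The populations were not released from the skin in the same way. Nfatc1+ cells were taken from whole skin after 16 min in 0.25% trypsin at 37°C. For Shh+ cells, the epidermis was removed after 1 h in dispase (0.4 mg/ml), and the dermis was then held in trypsin for 10 min. In the study's account, the epidermis took placodes and hair germs with it and the dermis kept hair pegs alone. The population, its digestion and the part of the skin it was taken from cannot be told apart in any value below. The sources used here do not tell if replicates were separate embryos or litters, so the spread behind every p-value is that of these libraries and could be technical alone. In such bulk libraries, fewer cells of a type and less RNA per cell also cannot be told apart.

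A Frizzled receptor spans the membrane several times and binds the lipid-bearing Wnt ligand through a cysteine-rich domain outside the cell. With the co-receptor Lrp5 or Lrp6 it recruits Dishevelled and stabilises β-catenin, and with other partners it takes part in planar cell polarity, the alignment of cells within a sheet. Wnt/β-catenin signalling is required for hair follicles to form, and Fzd6 is known in mouse skin for orienting the follicles.

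Levels are given in FPKM, the number of sequenced fragments corrected for transcript length and for the size of the library, which allows levels of different genes to be set side by side. Log2 fold changes are differences of log2(FPKM + 0.5), Shh+ minus Nfatc1+, from limma across the 12750 genes whose mean reached 0.5 FPKM. A gene was called at a Benjamini-Hochberg adjusted p under 0.05, and the scale understates the change of low genes. Folds are ratios of mean FPKM, and errors of means are SD with n = 2. The marks of the populations followed the labels, with Shh at 10.5 and 11.7 FPKM in the Nfatc1+ libraries and 144 and 145 FPKM in the Shh+ libraries, and Nfatc1 at 112 and 116 against 25.3 and 20.1 FPKM. Keratin 5 and keratin 14, which define basal epithelium, were at 1030 FPKM or more in every library, but the epithelial markers moved with the populations. Of the 10, 7 were called higher in Nfatc1+ cells and 2 in Shh+ cells, where 18.9% and 18.1% of all tested genes were called. The 10 markers summed to 7343 to 7362 FPKM against 5017 to 5030 FPKM. Krt5 had a log2 fold change of −0.83, the hemidesmosome genes Col17a1 and Itga6 of −1.31 and −1.69, and the desmosome gene Dsp of 0.53. None was at 0 in any library, and their part in the Frizzled values was not tested. The absolute depth is unknown, since FPKM holds no counts. Depth relative to Nfatc1+ replicate 1, read from the worth of 1 fragment among genes below 0.3 FPKM, was 1 and 0.927 in the Nfatc1+ libraries and 0.927 and 0.578 in the Shh+ libraries, so that low values were least precise in Shh+ replicate 2.

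The family was expressed at a similar summed level in both populations, but by different receptors. The 10 genes summed to 250.4 and 266.6 FPKM in the Nfatc1+ libraries and to 229.6 and 250.04 FPKM in the Shh+ libraries, a ratio of means of 1.08. No test was run on the sum, and the gap between the highest Shh+ and the lowest Nfatc1+ library was small against the spread within each group. Fzd7 supplied 43.0% and 42.3% of the sum in Nfatc1+ cells and 12.9% and 10.8% in Shh+ cells. Fzd10 supplied 12.4% and 11.9% in Nfatc1+ cells and 50.1% and 53.5% in Shh+ cells. The leading receptor was therefore Fzd7 in both Nfatc1+ libraries and Fzd10 in both Shh+ libraries.

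**Figure D1:**
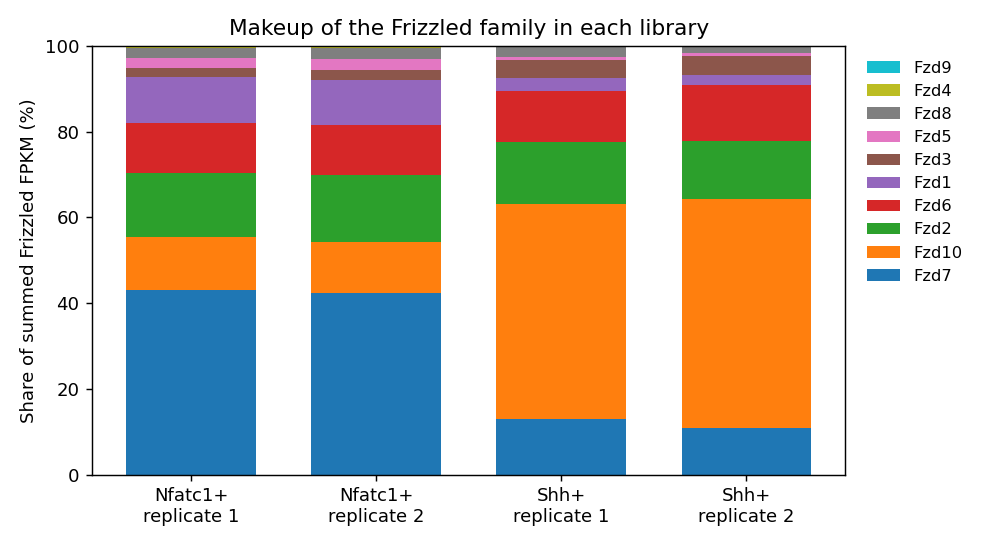
Share of the summed Frizzled FPKM (vertical axis, percent) taken by each of the 10 genes in each of the 4 libraries (bars). Fzd7 (blue) fills 43.0% and 42.3% of the Nfatc1+ bars and 12.9% and 10.8% of the Shh+ bars, while Fzd10 (orange) fills 12.4% and 11.9% and then 50.1% and 53.5%.

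Of the 9 tested genes, Fzd10 and Fzd3 were called higher in Shh+ cells, and Fzd1, Fzd4, Fzd5, Fzd7 and Fzd8 were called higher in Nfatc1+ cells, while Fzd2 and Fzd6 were not called. The 2 of 9 stand beside 18.1% of all tested genes called higher in Shh+ cells, and the 5 of 9 beside 18.9% called higher in Nfatc1+ cells. With a log2 fold change of at least 1 in size added, which is 2-fold on the log2(FPKM + 0.5) scale, Fzd10 remained on the Shh+ side, where 4.77% of all tested genes were called, and Fzd1, Fzd5 and Fzd7 remained on the Nfatc1+ side, where 5.81% were called. Fzd4, 2.99-fold by the ratio of mean FPKM, was below that limit on this scale. Fzd4 passed the filter only through the Nfatc1+ libraries, where it is higher, and of the other 8 genes 4 were called higher in Nfatc1+ cells. The calls of Fzd4 and Fzd8 ended without either Nfatc1+ replicate or without Shh+ replicate 2. This left 3 genes higher in Nfatc1+ cells, or 4 without Nfatc1+ replicate 1, where Fzd2 was called (limma adjusted p = 0.0442). The median log2 fold change was −0.50 over the 9 and −0.37 without Fzd4, against 0.00 over all tested genes. Among all 10 genes, the libraries of the populations did not overlap for 9, the exception being Fzd6, as against 70.7% of all tested genes. The sets are not alike, since the 9 include Fzd9, which was not tested, and Fzd4, which passed only through the Nfatc1+ libraries.

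**Figure D2:**
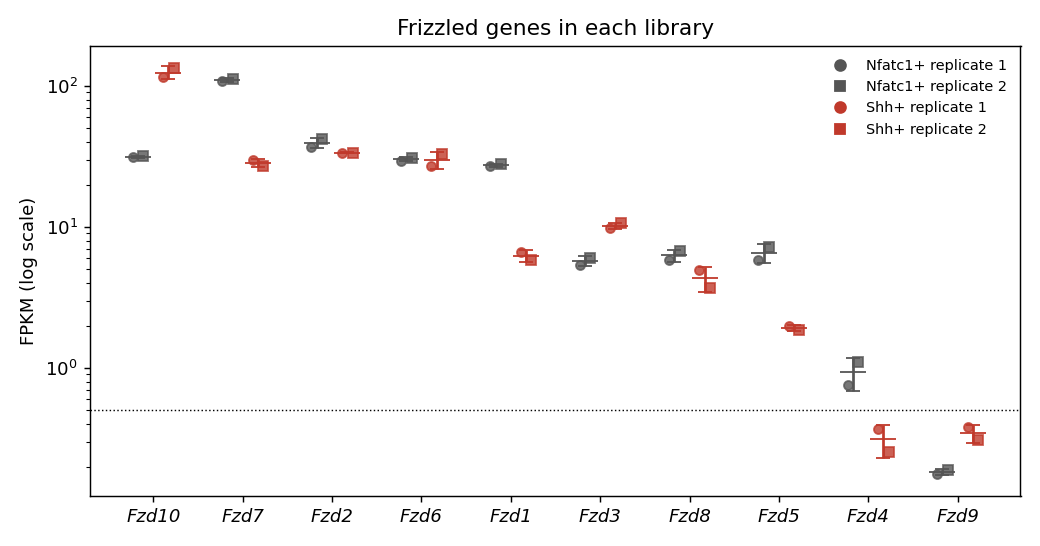
FPKM of each Frizzled gene (vertical axis, log scale) in Nfatc1+ (grey) and Shh+ (red) cells. Circles are replicate 1 and squares replicate 2, long horizontal lines are means and bars with short ends the SD of 2 libraries; the dotted line is the filter at 0.5 FPKM. Fzd7 is the highest in Nfatc1+ cells and Fzd10 in Shh+ cells, and Fzd6 has overlapping libraries at about the same level.

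Fzd10, which in vertebrates acts as a receptor in the β-catenin branch, showed the largest rise of the family. It was at 31.1 and 31.8 FPKM in the Nfatc1+ libraries and at 115 and 134 FPKM in the Shh+ libraries. Both Shh+ libraries lay above both Nfatc1+ libraries, by a factor of at least 3.62 between any pair. The means of 31.5 ± 0.494 and 124 ± 13.2 FPKM differed 3.95-fold, with a log2 fold change of 1.96 (SE 0.08, 95% interval 1.77 to 2.16, limma adjusted p = 9.00e-06). Only 1.46% of all tested genes had a log2 fold change as high or higher. By level, Fzd10 stood above 87.9% of all genes in Nfatc1+ cells and above 97.8% in Shh+ cells, so the gene was well expressed on both sides of the comparison. Fzd10 has 1 exon and lies on the plus strand of chromosome 5 from 128601106 to 128604093 (RefSeq, GRCm38.p6).

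Fzd7, a β-catenin branch receptor known from stem and progenitor cells of several epithelia, showed the opposite pattern. Its level was 108 and 113 FPKM in the Nfatc1+ libraries and 29.7 and 27.0 FPKM in the Shh+ libraries. The lower Nfatc1+ library was 3.63 times the higher Shh+ library, and replicates differed far less than the groups. The means of 110.3 ± 3.53 and 28.4 ± 1.91 FPKM differed 3.89-fold, with a log2 fold change of −1.94 (SE 0.07, 95% interval −2.11 to −1.77, limma adjusted p = 5.66e-06). The share of tested genes with a log2 fold change as low or lower was 1.62%. Fzd7 has 1 exon and lies on the plus strand of chromosome 1 from 59482147 to 59486955.

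The ratio of Fzd10 to Fzd7 within a library puts these values on a scale that does not depend on the library's normalisation. It was 0.289 and 0.282 in the Nfatc1+ libraries and 3.87 and 4.95 in the Shh+ libraries. The lowest Shh+ ratio was 13.4 times the highest Nfatc1+ ratio.

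Fzd1, which belongs with Fzd2 and Fzd7 to the same branch of the family, was lower in Shh+ cells, as Fzd7 was. It was at 26.9 and 27.9 FPKM in Nfatc1+ cells and at 6.66 and 5.81 FPKM in Shh+ cells, which do not overlap. The means of 27.4 ± 0.721 and 6.24 ± 0.601 FPKM gave a 4.39-fold difference and a log2 fold change of −2.05 (SE 0.10, 95% interval −2.28 to −1.82, limma adjusted p = 1.31e-05), the largest fall of the family. Fzd1 has 1 exon and lies on the minus strand of chromosome 5 from 4753839 to 4758216.

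Fzd2, a receptor for Wnt5a in mouse cells, moved little by comparison. Its libraries were at 37.2 and 42.0 FPKM in Nfatc1+ cells and at 33.6 and 33.7 FPKM in Shh+ cells. The groups did not overlap, but the difference did not pass the test over all genes, with a log2 fold change of −0.23 (95% interval −0.41 to −0.04, limma adjusted p = 0.0581). Without Nfatc1+ replicate 1 it did (−0.32, adjusted p = 0.0442). Fzd2 has 1 exon and lies on the plus strand of chromosome 11 from 102604431 to 102608058.

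Fzd1, Fzd2 and Fzd7 are the members most alike in sequence, and they did not move as a block. Aligned over the coding sequence of the GENCODE transcripts, Fzd2 and Fzd7 were identical at 76.6% of positions, Fzd1 and Fzd2 at 70.8%, and Fzd1 and Fzd7 at 69.1%. The ratio of Fzd7 to Fzd2 was 2.90 and 2.68 in the Nfatc1+ libraries and 0.884 and 0.801 in the Shh+ libraries, and that of Fzd1 to Fzd2 was 0.723 and 0.663 against 0.198 and 0.172. Fzd2 thus replaced Fzd7 as the highest of these 3 genes in Shh+ cells. Together they made 68.6% and 68.5% of the family's FPKM in Nfatc1+ cells and 30.5% and 26.6% in Shh+ cells. No run of 50 bases in any transcript of Fzd1, Fzd2, Fzd7, Fzd8, Fzd9 or Fzd10 occurs in a transcript of another gene, on either strand, and no such run is shared between any 2 Frizzled genes.

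The sequence just before the RefSeq start is shown for Fzd7 and Fzd1, the members with the largest falls, to set the genes that moved together side by side. RefSeq's GRCm38.p6 promoter table held 6 of the 10 genes, and in the GENCODE annotation the windows of Fzd4, Fzd5, Fzd9 and Fzd10 lie partly or wholly inside an annotated gene, so that these are not printed. The windows hold the 250 bases before the RefSeq start, at chr1:59481897-59482146 on the plus strand for Fzd7 and chr5:4758217-4758466 on the minus strand for Fzd1, given as written 5′ to 3′ in the direction of the gene. That direction was not checked for these windows. GENCODE puts the starts farther into the genes, at 59482424 for Fzd7 and 4758035 for Fzd1, so by GENCODE the windows do not reach the start. Capitals mark every match, on either strand, to 1 of 4 short motifs. These are the CCAAT box, spelled by its name, the GC box, spelled GGGCGG, and the TATA box, spelled TATAAA. The fourth is a word bound by TCF and LEF, the DNA-binding partners of β-catenin, spelled CTTTG with any pair of A and T letters after it.
Fzd7: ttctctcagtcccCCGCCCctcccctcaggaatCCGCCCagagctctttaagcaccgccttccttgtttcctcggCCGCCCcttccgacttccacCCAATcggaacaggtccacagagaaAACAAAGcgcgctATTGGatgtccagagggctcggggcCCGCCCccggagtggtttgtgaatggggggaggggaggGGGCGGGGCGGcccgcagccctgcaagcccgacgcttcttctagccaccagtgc
Fzd1: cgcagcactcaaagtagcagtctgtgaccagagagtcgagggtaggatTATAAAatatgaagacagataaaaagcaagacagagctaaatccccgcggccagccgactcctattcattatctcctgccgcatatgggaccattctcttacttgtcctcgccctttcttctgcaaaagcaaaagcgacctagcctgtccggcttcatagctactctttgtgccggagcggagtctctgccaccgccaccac

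None of the 4 motifs is in both windows. The Fzd7 window holds 2 CCAAT boxes, 6 GC boxes and 1 TCF/LEF word that begins 130 bases before the start, and the last capital run holds 2 GC boxes that overlap by 1 base. The Fzd1 window holds 1 TATA word that begins 202 bases before the start. Of the 32851 windows of the same length in the table, 33.8% hold a CCAAT box, 32.7% a GC box, 12.4% a TATA word and 14.8% a TCF/LEF word. The share of G and C was 65.2% for Fzd7 and 51.2% for Fzd1, against a median of 52.4% over the table. These are matches of letters and no measure of binding.

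Fzd5 and Fzd8, which are 64.8% identical over the coding sequence, lay at low levels and on the Nfatc1+ side. Fzd5, known from eye and intestinal development, was at 5.86 and 7.25 FPKM in Nfatc1+ cells and at 1.996 and 1.86 FPKM in Shh+ cells. The groups did not overlap, and the means of 6.55 ± 0.983 and 1.93 ± 0.0971 FPKM differed 3.40-fold, with a log2 fold change of −1.53 (SE 0.15, 95% interval −1.89 to −1.18, limma adjusted p = 0.000324). Fzd5 lies on the minus strand of chromosome 1 from 64730558 to 64737750, with 2 exons, of which 1 is coding. It overlaps Gm38058, an annotated transcript on the opposite strand, and 16.4% of the runs of 50 bases in Fzd5 transcripts also occur in that gene. The protocols used here do not say that strand was kept, in which case reads of the overlap cannot be told apart.

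Fzd8 was at 5.86 and 6.70 FPKM in Nfatc1+ cells and at 4.92 and 3.71 FPKM in Shh+ cells. The groups did not overlap and the difference was called, with a log2 fold change of −0.50 (95% interval −0.87 to −0.13, limma adjusted p = 0.0432). The call ended without Nfatc1+ replicate 1 (adjusted p = 0.0863), without Nfatc1+ replicate 2 (0.208) and without Shh+ replicate 2 (0.173), and held without Shh+ replicate 1 (0.0274). The pair was at equal levels in Nfatc1+ cells, where the ratio of Fzd5 to Fzd8 was 1.00 and 1.08, but at unequal levels in Shh+ cells, where it was 0.406 and 0.501. Fzd8 has 1 exon and lies on the plus strand of chromosome 18 from 9212856 to 9216201.

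Fzd4 and Fzd9, which are grouped with Fzd10 in the family, were its lowest members. Fzd9 was the nearest to Fzd10 in coding sequence at 67.4%, while Fzd4, at 56.9%, came after Fzd5, Fzd7 and Fzd2 (58.8%, 57.3% and 57.2%). Fzd4, the receptor for norrin in retinal vessels, was at 0.756 and 1.11 FPKM in Nfatc1+ cells and at 0.368 and 0.255 FPKM in Shh+ cells. The call of Fzd4 as higher in Nfatc1+ cells, with a log2 fold change of −0.81 (95% interval −1.40 to −0.22, limma adjusted p = 0.0416), ended whichever library was left out (adjusted p = 0.0532 to 0.193). The gene was under the filter in Shh+ cells, so that it could be tested only because of its Nfatc1+ level. Fzd9, which lies in the mouse region matching the human Williams syndrome deletion, was at 0.176 and 0.190 FPKM in Nfatc1+ cells and at 0.381 and 0.307 FPKM in Shh+ cells. Its mean over the libraries was below the filter, and fitted with no filter it had a log2 fold change of 0.30 (limma adjusted p = 0.120). Fzd4 has 2 exons and lies on the plus strand of chromosome 7 from 89404366 to 89410110. Fzd9 has 1 exon and lies on the minus strand of chromosome 5 from 135248938 to 135251047.

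Endothelial markers were measured because Fzd4 is best known from vessels. The 9 markers summed to 13.1 and 13.7 FPKM in the Nfatc1+ libraries and to 15.0 and 14.8 FPKM in the Shh+ libraries. Of the 7 tested, 0 was called, where 18.9% of all tested genes were called higher in Nfatc1+ cells and 18.1% in Shh+ cells. Most of each sum was Egfl7, at 8.87 and 7.33 FPKM in Nfatc1+ cells and 8.60 and 9.12 FPKM in Shh+ cells. Pecam1, Cdh5 and Kdr, which define the lineage, were each at or below 1.65 FPKM in every library, and none of the 9 was at 0 throughout. The part of these cells in the Fzd4 values was not tested.

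Fzd3 and Fzd6 are the members tied to planar cell polarity in mammals and are 57.9% identical over the coding sequence. Fzd3, known also for guiding axons, was at 5.41 and 6.05 FPKM in Nfatc1+ cells and at 9.77 and 10.6 FPKM in Shh+ cells, which do not overlap. The means of 5.73 ± 0.448 and 10.2 ± 0.579 FPKM differed 1.78-fold, with a log2 fold change of 0.78 (SE 0.11, 95% interval 0.52 to 1.04, limma adjusted p = 0.00166). Fzd6 was at 29.5 and 30.9 FPKM in Nfatc1+ cells and at 27.2 and 33.0 FPKM in Shh+ cells. The Nfatc1+ values fell between the Shh+ values, and the log2 fold change was −0.01 (95% interval −0.25 to 0.23, limma adjusted p = 0.947), an interval that holds no change beyond 0.25 in either direction. The ratio of Fzd3 to Fzd6 was 0.184 and 0.196 in Nfatc1+ cells and 0.360 and 0.321 in Shh+ cells. Fzd3 has 7 exons, 6 of them coding, and lies on the minus strand of chromosome 14 from 65192441 to 65262463, and Fzd6 has 7 exons, 6 of them coding, on the plus strand of chromosome 15 from 39006149 to 39038192. Fzd3 overlaps the annotated genes Gm27263 and Gm9086, and Fzd6 overlaps Gm26704, with which it shares 2.12% of its runs of 50 bases.

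**Figure D3:**
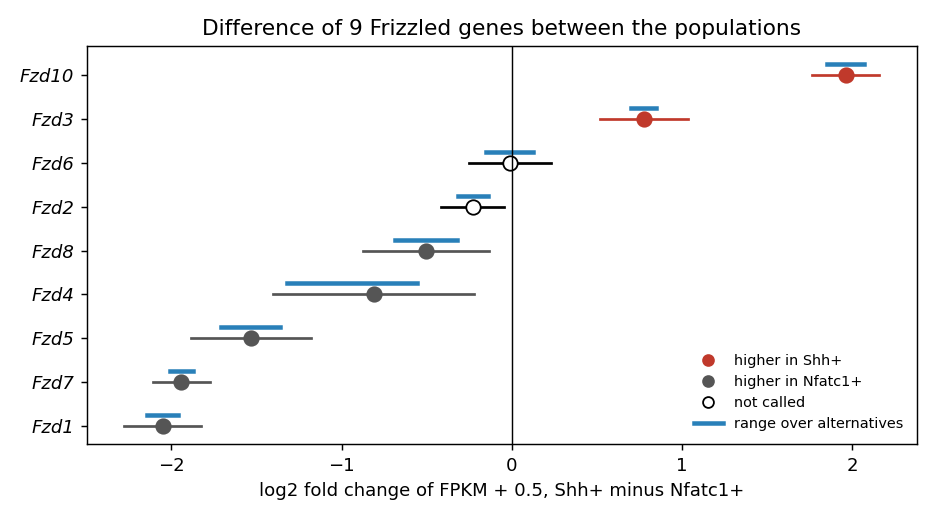
Log2 fold change of FPKM + 0.5, Shh+ minus Nfatc1+ (horizontal axis), of the 9 tested Frizzled genes. Points are estimates and thin lines 95% intervals, filled where the gene was called, and blue bars span the estimates over the other settings tried; Fzd10 (1.96) and Fzd3 (0.78) lie to the right, Fzd6 (−0.01) at 0, and Fzd1 (−2.05) and Fzd7 (−1.94) farthest to the left.

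The order of levels changed accordingly. In Nfatc1+ cells it ran Fzd7, Fzd2, Fzd10, Fzd6, Fzd1, Fzd5, Fzd8, Fzd3, Fzd4, Fzd9 from the highest mean to the lowest. The libraries of Fzd5 and Fzd8 and those of Fzd8 and Fzd3 overlapped, and the means of Fzd10 and Fzd6 lay closer than the sum of their SDs, so these neighbours do not differ beyond their spread. In Shh+ cells it ran Fzd10, Fzd2, Fzd6, Fzd7, Fzd3, Fzd1, Fzd8, Fzd5, Fzd9, Fzd4, and the neighbours within their spread were Fzd2 and Fzd6, Fzd6 and Fzd7, and Fzd9 and Fzd4. Smo, the Frizzled-class receptor that carries the Hedgehog signal and binds no Wnt, was at 61.8 and 59.2 FPKM in Nfatc1+ cells and at 61.9 and 60.1 FPKM in Shh+ cells (a log2 fold change of 0.01, 95% interval −0.13 to 0.16, limma adjusted p = 0.898).

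The genes that act next to the receptors were taken from lists drawn up by function. Earlier results of these data were known when the lists were chosen, so their counts only describe. They hold 69 names and 68 were matched, since Adgra2 stands in the table as Gpr124. Of the 50 that were tested, the call went to Shh+ cells for 17 and to Nfatc1+ cells for 16, and 17 had none, that is 34.0% and 32.0%, where 18.1% and 18.9% of all tested genes were called. With a log2 fold change of at least 1 in size on the log2(FPKM + 0.5) scale, the calls were 10 and 9, that is 20.0% and 18.0% against 4.77% and 5.81%. The same shares of all tested genes stand beside the counts of each list below. Their median log2 fold change was −0.04.

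Co-receptors mostly did not pass the test, with 1 of 6 called in each direction. Lrp5 was at 50.9 and 52.8 FPKM in Nfatc1+ cells and at 37.8 and 33.6 FPKM in Shh+ cells, a log2 fold change of −0.53 (95% interval −0.71 to −0.35, limma adjusted p = 0.00183). Its partner Lrp6 had libraries between 23.8 and 26.9 FPKM and a log2 fold change of −0.09 (95% interval −0.27 to 0.08, limma adjusted p = 0.361). Among the co-receptors of the branches that do not use β-catenin, Ryk, a Wnt-binding pseudokinase, was the most abundant at 149 ± 0.460 and 146 ± 0.148 FPKM, with an interval of −0.15 to 0.10. Ptk7, a planar polarity pseudokinase, was at 91.0 ± 5.60 and 80.4 ± 0.775 FPKM and was not called (log2 fold change −0.18, limma adjusted p = 0.0728). The Wnt5a receptor Ror1 was at 2.17 ± 0.155 and 1.99 ± 0.182 FPKM (limma adjusted p = 0.665). Its relative Ror2 was at 0.79 and 1.63 FPKM in Nfatc1+ cells and 3.09 and 2.47 FPKM in Shh+ cells, and its call (log2 fold change 0.98, limma adjusted p = 0.0264) was lost once Nfatc1+ replicate 1 or either Shh+ replicate was left out (adjusted p = 0.0996, 0.128 and 0.0618).

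The partners of Fzd4 were also low. Tspan12, which joins Fzd4 in norrin signalling, was at 2.95 ± 0.782 and 2.12 ± 0.356 FPKM and was not called (limma adjusted p = 0.188), and Ndp, which encodes norrin, was at or below 0.169 FPKM in every library. Gpr124, which works with Reck in Wnt7 signalling of brain vessels, was called higher in Nfatc1+ cells at a log2 fold change of −0.68 (limma adjusted p = 0.0411), and the call ended without either Nfatc1+ replicate or without Shh+ replicate 2 (adjusted p = 0.135, 0.120 and 0.0806).

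Dishevelled, the cytoplasmic protein that Frizzled recruits, showed no call in any of its 3 genes. Dvl1 was at 24.9 ± 1.96 and 24.8 ± 1.02 FPKM, with an interval of −0.20 to 0.19 for the log2 fold change. Dvl2 was at 34.0 ± 0.562 and 31.5 ± 2.78 FPKM, with an interval of −0.30 to 0.08, and Dvl3 at 27.1 ± 0.256 and 30.5 ± 1.20 FPKM, with an interval of 0.01 to 0.33. The limma adjusted p-values of the 3 genes were 0.967, 0.317 and 0.0959.

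The planar polarity core genes went both ways, with 3 of 8 tested higher on the Shh+ side and 4 on the Nfatc1+ side. Vangl1, a membrane protein of the complex opposite Frizzled, was at 39.2 ± 2.30 FPKM in Nfatc1+ cells and at 16.4 ± 1.17 FPKM in Shh+ cells (a log2 fold change of −1.24, limma adjusted p = 6.25e-05). Its paralog Vangl2 was at 37.2 ± 1.79 and 44.8 ± 1.51 FPKM (log2 fold change 0.26, limma adjusted p = 0.0225), a call lost once replicate 1 of either population was left out (adjusted p = 0.128 and 0.0882). Prickle1, which binds Vangl inside the cell, was higher in Shh+ cells at 11.7 ± 0.272 against 5.65 ± 0.917 FPKM (log2 fold change 0.99, limma adjusted p = 0.00109). Prickle2 was higher in Nfatc1+ cells at 1.98 ± 0.0419 against 0.278 ± 0.112 FPKM (log2 fold change −1.68, limma adjusted p = 0.00113). Vangl1 and Vangl2, and Prickle1 and Prickle2, were thus called in opposite directions. Prickle2 was under the filter in Shh+ cells, so that it could be tested only because of its Nfatc1+ level. The others called were Ankrd6, a vertebrate relative of Diego, in Shh+ cells (0.95), and the cadherin Celsr2 and Prickle3 in Nfatc1+ cells (−0.60 and −0.59).

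Genes that set how much Frizzled stays at the surface differed in every tested case, 5 of 7 being higher in Nfatc1+ cells and 2 in Shh+ cells. The ubiquitin ligases Rnf43 and Znrf3, which remove Frizzled from the membrane, went in opposite directions. Rnf43 was at 30.4 and 29.2 FPKM in Nfatc1+ cells and at 23.2 and 25.8 FPKM in Shh+ cells (a log2 fold change of −0.28, limma adjusted p = 0.0303), and the call ended without either Nfatc1+ replicate or without Shh+ replicate 1 (adjusted p = 0.144, 0.0887 and 0.114). Znrf3 was at 19.8 and 19.3 FPKM against 26.9 and 29.3 FPKM (log2 fold change 0.51, limma adjusted p = 0.00226). The R-spondin receptors, which hold these ligases in check when bound, were higher in Nfatc1+ cells. Lgr5 was at 42.9 and 46.0 FPKM in Nfatc1+ cells and 3.38 and 3.88 FPKM in Shh+ cells (a log2 fold change of −3.45, limma adjusted p = 3.03e-06), and Lgr4 had a log2 fold change of −1.43 and Lgr6 of −0.57. The ligand Rspo1 was higher in Shh+ cells, at 2.77 ± 0.631 against 0.510 ± 0.140 FPKM (log2 fold change 1.69, limma adjusted p = 0.00127). Shisa2, whose Xenopus relative holds Frizzled back in the endoplasmic reticulum, was at 14.6 ± 0.162 FPKM in Nfatc1+ cells and at 1.99 ± 0.0897 FPKM in Shh+ cells (a log2 fold change of −2.60, limma adjusted p = 9.08e-06).

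**Figure D4:**
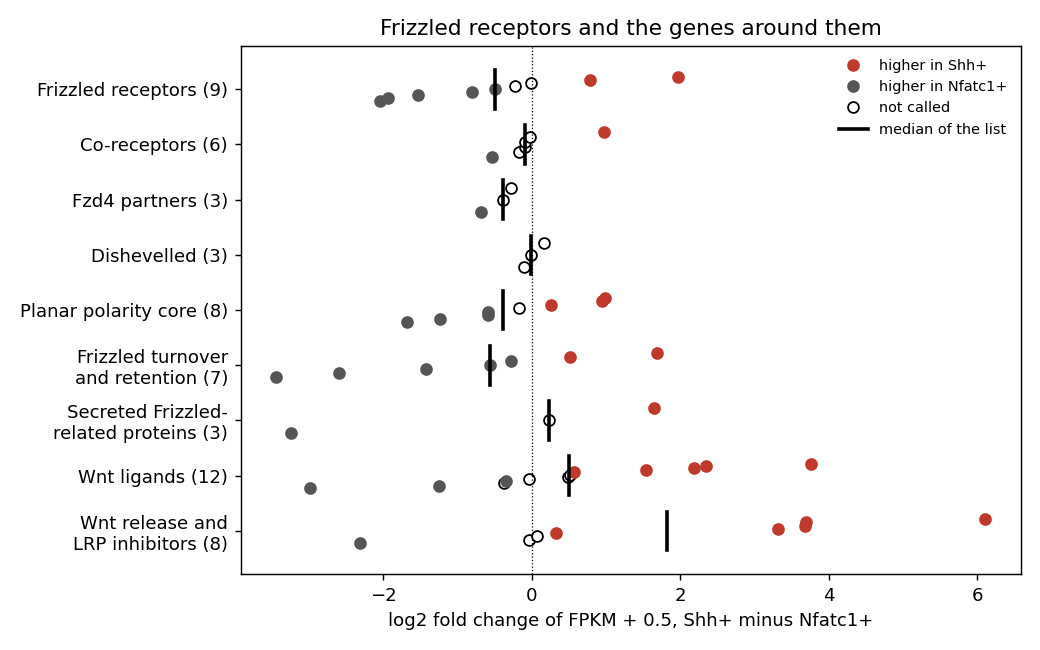
Log2 fold change of FPKM + 0.5, Shh+ minus Nfatc1+ (horizontal axis), of the tested genes of each list, with the number tested in brackets. Each point is a gene, red where called higher in Shh+ cells, grey where called higher in Nfatc1+ cells and open where not called, and the black bar is the list's median; the 3 Dishevelled genes lie near 0, while the Frizzled genes spread from −2.05 to 1.96.

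Secreted Frizzled-related proteins carry a Frizzled-like cysteine-rich domain and bind Wnts outside the cell. Sfrp1 was at 37.6 and 36.4 FPKM in Nfatc1+ cells and at 3.63 and 3.30 FPKM in Shh+ cells (a log2 fold change of −3.24, limma adjusted p = 3.03e-06). Sfrp5 was at 0.198 and 0.373 FPKM in Nfatc1+ cells and at 2.29 and 1.63 FPKM in Shh+ cells (a log2 fold change of 1.64, limma adjusted p = 0.00218). Neither pair of groups overlapped, and Sfrp1 stood at the higher level of the pair in all 4 libraries. Sfrp5 was under the filter in Nfatc1+ cells, so that it could be tested only because of its Shh+ level. Sfrp2 was not called at 6.21 ± 1.84 and 7.22 ± 0.366 FPKM.

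The ligands summed to 219.7 and 230.0 FPKM in the Nfatc1+ libraries and to 431 and 437 FPKM in the Shh+ libraries, where the summed receptors were about level. Most of the rise in the ligand sum came from a single gene, Wnt10b. Of 12 tested, the call went to Shh+ cells for 5 and to Nfatc1+ cells for 3. Wnt10b, a ligand of the β-catenin branch, was at 14.5 ± 2.46 FPKM in Nfatc1+ cells and at 201 ± 0.462 FPKM in Shh+ cells (a log2 fold change of 3.76, limma adjusted p = 3.26e-06), and Wnt3 (2.34) and Wnt7a (2.19) followed it. On the other side, Wnt5a, a ligand of the branches without β-catenin, was at 25.6 ± 0.557 FPKM in Nfatc1+ cells and at 2.79 ± 0.163 FPKM in Shh+ cells (a log2 fold change of −2.98, limma adjusted p = 4.20e-06), with Wnt7b (−1.24) and Wnt4 (−0.34) also higher there. Leaving out Nfatc1+ replicate 2 ended the call of Wnt4 (adjusted p = 0.0566).

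Of the 8 tested genes for Wnt release and for inhibitors of the ligand or of Lrp, 5 had their higher level in Shh+ cells and 1 in Nfatc1+ cells. The Lrp inhibitor Dkk4 had a log2 fold change of 6.11, the Wnt-binding Wif1 of 3.70 and the Dkk receptor Kremen2 of 3.68, while Sostdc1, another Lrp inhibitor, had one of −2.32. Wls, which carries Wnts to the cell surface, was not called at 89.6 ± 3.50 and 87.0 ± 7.23 FPKM.

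Markers of other cell types moved with the populations in some lists. Of 8 tested Merkel cell markers, 6 were higher in Nfatc1+ cells, the list of 10 summing to 55.5 to 62.5 FPKM there and 24.1 to 28.4 FPKM in Shh+ cells. Of 8 tested sebocyte markers, 5 were higher in Nfatc1+ cells, with 9 markers summing to 158 to 175 FPKM and 71.6 to 90.2 FPKM. Of 6 tested markers of differentiated epidermis, 4 were higher in Shh+ cells, among them Lor (log2 fold change 3.16), Krt10 (0.81) and Krt1 (0.71), and 1, Krtdap, was higher in Nfatc1+ cells (−0.98), the list summing to 869 to 920 FPKM in Nfatc1+ cells and 1002 to 1210 FPKM in Shh+ cells. Of 5 tested dermal condensate markers, Crabp1 (log2 fold change 1.44) and Alpl (1.64) were higher in Shh+ cells and Sox2 (−2.13) in Nfatc1+ cells, the list summing to 10.6 to 15.3 and 15.9 to 20.1 FPKM. Some of these called markers could be tested only because of the group where they were higher. Lor and Alpl were under the filter in Nfatc1+ cells, and Atoh1, Isl1, Krt20, Pparg and Cidea were under it in Shh+ cells. The dermal condensate marker Gal was at 0 in all 4 libraries and no other marker of these 4 lists was, but Krt20 and Pparg were each at 0 in 1 Shh+ library and Awat1 in both. Of the differentiated epidermis markers, Ivl was above 0 only in Shh+ replicate 1 (0.0526 FPKM) and Lce1a1 only in Nfatc1+ replicate 1 (0.314 FPKM). The part of these cells in the Frizzled values was not tested.

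Other lists varied between libraries of the same group. The 12 melanocyte markers summed to 33.3 and 68.5 FPKM in the Nfatc1+ libraries and to 8.55 and 47.0 FPKM in the Shh+ libraries, higher in replicate 2 of each, and 1 of 11 tested was called. This was Mitf, higher in Nfatc1+ cells at 9.74 and 12.3 against 0.860 and 1.29 FPKM (log2 fold change −2.88, limma adjusted p = 5.18e-05). The 10 fibroblast markers summed to 414 and 709 FPKM against 644 and 755 FPKM, with 1 of 10 called in each direction. Dcn, a matrix gene, was higher in Shh+ cells at 326 and 425 against 40.3 and 57.7 FPKM, and the collagen gene Col3a1 was higher in Nfatc1+ cells (log2 fold change −0.97, limma adjusted p = 0.0422). The 9 fibroblast markers other than Dcn summed to 374 and 652 FPKM in the Nfatc1+ libraries and to 318 and 330.0 FPKM in the Shh+ libraries, and the median log2 fold change of the 10 was −0.45. Between replicate 1 and 2, no Frizzled gene changed by more than 0.37 log2 units on the tested scale. Of 20 tested immediate early and stress genes, which tissue digestion can induce, 16 had their higher level in Nfatc1+ cells and 2 in Shh+ cells, their sums being 4437 and 4821 against 3298 and 2986 FPKM. The part of these genes and cells in the Frizzled values was not tested.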

How the data were processed

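The deposited table holds FPKM per gene, which the authors made by mapping paired reads to the mouse genome (mm10) with TopHat2 2.0.13 and quantifying genes with Cufflinks 2.2.1. HTSeq is also named in the submitters' processing notes, without its role. The annotation and the depth per library are not given in the sources used here, and since FPKM carries no counts, counting intervals were not computed. Frizzled genes were matched by symbol. Log2(FPKM + 0.5) of genes whose mean reached 0.5 FPKM was fitted on all 4 libraries with limma 3.58.1 (R 4.3.3), without covariates and with an intensity trend, two-sided, with Benjamini-Hochberg adjustment over 12750 genes. The fit was run on simulated data with independent normal noise of the SD that the same fit gave. Such data follow the model, so they cannot show if the p-values hold for these libraries.

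The members, gene lists and tests were chosen with earlier results of these data known. All 10 Frizzled genes were described. Of the lists around them, a fixed set of co-receptors, ligases, Sfrp1, Smo and the Dishevelled genes was named, with up to 3 called genes of each list with the largest differences in each direction; Wls, Ndp, Sfrp2, Lgr6, Prickle3 and the marker genes were named after their values were seen. Alternatives were other pseudocounts, filters and scalings, no trend, a replicate block, the study's form of threshold and leaving out each library. Gene positions and upstream windows are from RefSeq (GRCm38.p6), and exons and transcripts from GENCODE M21 (GRCm38).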

Additional observations from a re-analysis of the deposited data

How the results depend on the processing

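The calls of Fzd1, Fzd5, Fzd7 and Fzd10 held in all 13 alternatives, with log2 fold changes of −2.14 to −1.96, −1.71 to −1.36, −2.01 to −1.87 and 1.85 to 2.07. Leaving out 1 library at a time gave 2 Frizzled genes higher in Shh+ cells each time and 3 to 4 higher in Nfatc1+ cells, with 15 to 17 and 13 to 15 of the pathway genes around them. An unadjusted p under 0.01 with a difference over 2-fold on the log2(FPKM + 0.5) scale gave 1 and 3 Frizzled genes and 10 and 9 pathway genes, and ended the call of Fzd3. Fzd8 was not called with no filter (limma adjusted p = 0.0953) or no intensity trend (0.0715), and Fzd4 was not tested at a mean of at least 1 FPKM. Values near 0 changed sign. With upper-quartile scaling Fzd6 was at 0.00340 and Dvl1 at 0.00858, and leaving out 1 library at a time gave −0.15 to 0.13 for Fzd6, −0.0838 to 0.0734 for Dvl1 and −0.0187 to 0.0426 for Smo. The cause was not tested.

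The groups share replicate numbers, which nothing in the labels says pair the libraries. The differences between replicate 1 and 2 correlated at 0.114 over 12750 genes. With a replicate block, the Frizzled calls were 2 for Shh+ cells and 6 for Nfatc1+ cells, since Fzd2 was called (limma adjusted p = 0.0448), and over all genes 2424 and 2523 were called against 2310 and 2406. Low values, such as those of Fzd4 and Fzd9, are limited by depth most in Shh+ replicate 2.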

Other observations

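The nearest gene to Fzd10 among those of the expression table was Fzd10os, a long noncoding RNA listed there as 5930412G12Rik. Its nearer edge lies 419 bases before the RefSeq start of Fzd10, and its direction of transcription was not examined. Fzd10os was at 2.34 and 2.36 FPKM in Nfatc1+ cells and at 7.69 and 7.73 FPKM in Shh+ cells (a log2 fold change of 1.53, SE 0.12, limma adjusted p = 0.000115). It was higher in Shh+ cells, as Fzd10 was. Gm973, 29309 bases beyond Fzd7, was at 20.5 and 20.1 FPKM in Nfatc1+ cells and at 0.0540 and 0.131 FPKM in Shh+ cells (a log2 fold change of −5.14, limma adjusted p = 3.03e-06), lower in Shh+ cells, as Fzd7 was. Gm973 was under the filter in Shh+ cells, so that it could be tested only because of its Nfatc1+ level. Extl3, which encodes a heparan sulfate enzyme and lies 42542 bases from Fzd3, was higher in Shh+ cells, as Fzd3 was (log2 fold change 0.83, limma adjusted p = 0.000119). Neighbours of other called members went both ways. The genes picked for Fzd1 were Mterf1b and the cyclin-dependent kinase gene Cdk14. Mterf1b, listed in the table as Gm9897, lies 556188 bases away (log2 fold change −0.83, limma adjusted p = 0.0315). Cdk14 lies 45168 bases away (0.74, 0.0110), and Fzd1 itself was lower in Shh+ cells. Those picked for Fzd4 were Rab38, 912794 bases away (−1.36, limma adjusted p = 6.57e-05), and Prss23, 97673 bases away (1.23, 0.00175). Tmem135, which in GENCODE reaches into the 250 bases before the RefSeq start of Fzd4, was not among the genes picked. Those picked for Fzd5 were Ccnyl1 (−0.12, limma adjusted p = 0.382) and Plekhm3 (−0.55, 0.0243). Fzd4 and Fzd5 were both lower in Shh+ cells. In all, 11 neighbours picked for the called members were tested, of which 6 were called in the direction of the member, 2 in the other direction and 3 not at all, where the calls over all tested genes were 18.1% for Shh+ cells and 18.9% for Nfatc1+ cells. The neighbours were picked by distance in RefSeq, among genes of the expression table that do not overlap the member. A nearer gene can therefore be missing.

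Among the 9336 genes whose mean reached 5 FPKM, the pattern over the 4 libraries nearest to that of Fzd10 was that of Nfe2l3, with a root mean square distance of 0.0390 log2 units after centring, followed by Kcnk1 (0.0849) and Smtnl2 (0.0885). Nfe2l3, a transcription factor gene of the cap'n'collar family, was at 2.74 and 2.80 FPKM in Nfatc1+ cells and at 11.8 and 12.7 FPKM in Shh+ cells. The patterns nearest to that of Fzd7 were those of Iffo2 (0.0324), Ank (0.0439) and Gas1 (0.0493). Gas1, a co-receptor gene of the Hedgehog pathway, was at 141 and 136 FPKM in Nfatc1+ cells and at 35.8 and 33.4 FPKM in Shh+ cells. With 4 libraries in 2 groups, such a distance reflects mainly the size of the difference between the groups.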
